A study of Homo sapiens with 8 samples.

Results

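MALAT1 and NEAT1, 2 long noncoding RNAs that stay in the nucleus, were described here together with the messenger RNAs of 4 proteins that make paraspeckles with NEAT1: SFPQ, NONO, PSPC1 and RBM14. These are 6 of the 58884 genes in the counts table, each matched to 1 Ensembl identifier, and all 6 were among the 14741 genes with enough counts to be tested. The libraries come from U87, an established human glioblastoma cell line, and the study asked how gene expression responds to AsiDNA, a short synthetic double-stranded DNA that mimics a broken DNA end and draws repair proteins to itself, and to belinostat, an inhibitor of histone deacetylases. There were 4 groups of 2 libraries each: the solvent DMSO, AsiDNA alone, belinostat alone (1 µM, 24 h), and AsiDNA together with belinostat at the same dose and time (the combination). The culture notes name the cells MTU87 and LTAU87, names that the labels do not spell out, and an AsiDNA dose or time is not given in the sources used here. MALAT1 and NEAT1 were chosen by measured values, namely their high levels in the belinostat libraries in earlier results of these data, so every level and difference of these 2 genes is a description and carries no test. The 4 protein genes were selected for their known role.

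Paraspeckles are bodies in the nucleus of many cultured and stressed cells, and they assemble on the long form of NEAT1 while that RNA is being made. SFPQ, NONO and PSPC1 belong to 1 family of RNA-binding proteins that bind NEAT1 as dimers, and SFPQ and NONO are needed for the long RNA to accumulate, while RBM14 is needed for the body to form. MALAT1, which lies next to NEAT1 in the genome, collects at nuclear speckles, bodies rich in splicing factors. Neither the long NEAT1 nor MALAT1 gets its end from the usual poly(A) machinery: RNase P cuts in front of a small RNA that looks like a transfer RNA, and the new end is protected by a triple helix between A-rich and U-rich stretches.

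The last 100 bases of both RNAs before that cut are shown because these ends let both RNAs be kept without an ordinary poly(A) tail. Capitals mark the 2 U-rich runs (written with T) and the A-rich run at the end. Both come from the GENCODE v29 transcripts (GRCh38, plus strand), and the small RNA that follows in MALAT1, which GENCODE lists as a gene of its own, is given under them.
MALAT1 end, chr11:65506017-65506116: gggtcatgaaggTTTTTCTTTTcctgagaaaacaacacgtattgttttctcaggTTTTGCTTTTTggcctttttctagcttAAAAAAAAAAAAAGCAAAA
NEAT1 end, chr11:65445441-65445540: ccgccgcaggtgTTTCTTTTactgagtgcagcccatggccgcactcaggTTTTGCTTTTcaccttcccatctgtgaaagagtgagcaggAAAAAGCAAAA
MALAT1 tRNA-like small RNA, chr11:65506117-65506173: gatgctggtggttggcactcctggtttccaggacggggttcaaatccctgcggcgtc
The small RNA of MALAT1 had 0 counts in every library, and the matching one of NEAT1 had between 0 and 6. These counts are not alike: the first lies inside the annotated MALAT1 gene, and the second starts just after the end of NEAT1. Reads over the first may have been counted for MALAT1 or left out. The counts thus do not show that either small RNA was absent or that the 2 differed. The libraries were made from total RNA after removal of ribosomal RNA, so an RNA without a poly(A) tail can be counted.

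The 8 libraries held 6057394 to 9699637 counts, so that 3 counts, the limit that a count of 0 allows, correspond to 0.292 to 0.508 CPM (counts per 1000000 counts of a library, scaled by TMM factors). All CPM values are on that scale, and a level per length is the CPM divided by the exon length in kb. Of the 6 fixed markers of glioma and mesenchymal cells, all were over 1 CPM, with a summed level of 21421 to 25327 CPM in the DMSO libraries, 24196 to 25095 with AsiDNA, 33310 to 39305 with belinostat and 43358 to 43472 in the combination; FN1 (fibronectin) was the highest. The immune markers CD3E and AIF1, the neuron marker STMN2, the oligodendrocyte marker MOG and the endothelial marker CDH5 were at 0 in all 8 libraries, and of 5 astrocyte markers only SLC1A3 was over 1 CPM. A marker counts as over 1 CPM by its mean over the 8 libraries. Over the whole lists, 2 of 5 neuron markers were over 1 CPM, the highest being GAD1 at a mean of 13.5 CPM. The neuron sums were 15.9 to 25.5 CPM with DMSO and 15.6 to 16.4 with AsiDNA. They were 26.3 to 29.98 CPM with belinostat and 19.1 to 20.7 in the combination. Of 3 endothelial markers 1 was over 1 CPM (PECAM1, at a mean of 11.1 CPM over the 8 libraries). The endothelial sums in the same order of groups were 5.15 to 5.17, 3.74 to 6.11, 19.5 to 23.6 and 13.5 to 16.5 CPM. Of 4 oligodendrocyte markers 1 was over 1 CPM (MBP, at a mean of 6.12 CPM). The oligodendrocyte sums were 7.78 to 8.38, 10.0 to 13.1, 2.54 to 3.99 and 4.84 to 6.66 CPM. The neuron and endothelial sums were highest with belinostat, as were MALAT1 and NEAT1; their part in the results was not tested. Nothing in the labels says that the 2 libraries of a group came from separate cultures, so p-values measure only the spread between these libraries, which may be technical. In bulk RNA, fewer cells with an RNA and less of it per cell cannot be told apart.

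MALAT1 (ENSG00000251562, chromosome 11, 65497688 to 65506516, plus strand, a long intergenic noncoding RNA) was highest with belinostat. Its level was 5393 and 12377 CPM in the 2 DMSO libraries, 4312 and 3933 with AsiDNA, 77860 and 82323 with belinostat, and 22137 and 15162 in the combination. Both belinostat libraries lay above all others, both combination libraries lay above all DMSO and AsiDNA libraries, and both AsiDNA libraries lay below both DMSO libraries. MALAT1 held 7.77% ± 0.37 (SD, n = 2) of all counts with belinostat, where it was rank 1 of all genes, 1.74% ± 0.46 in the combination, 0.964% ± 0.585 with DMSO and 0.423% ± 0.029 with AsiDNA, where it was rank 9. The fitted log2 difference of belinostat from DMSO was 3.17 ± 0.32 (SE), a 9.01-fold higher level. With AsiDNA present in both groups, the log2 difference of the combination from AsiDNA was 2.18 ± 0.31. The combination lay 2.10 below belinostat on the log2 scale (-2.10 ± 0.31), and AsiDNA differed from DMSO by -1.11 ± 0.30.

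NEAT1 (ENSG00000245532, chromosome 11, 65422774 to 65445540, plus strand, also a long intergenic noncoding RNA) had the same order of groups. It stood at 3536 and 12920 CPM with DMSO, at 3011 and 2785 with AsiDNA, at 48386 and 55034 with belinostat, and at 11313 and 6837 in the combination. The belinostat libraries were again above all others and the AsiDNA libraries below all others, but here the combination and DMSO overlapped, because the 2 DMSO libraries lay on either side of both combination libraries. NEAT1 held 5.01% ± 0.50 (SD, n = 2) of all counts with belinostat and 0.297% ± 0.017 with AsiDNA. Its log2 difference was 2.65 ± 0.43 (SE) for belinostat from DMSO, 1.65 ± 0.42 for the combination from AsiDNA and -2.51 ± 0.43 for the combination from belinostat. For AsiDNA from DMSO it was -1.51 ± 0.41, and for the combination from DMSO 0.14 ± 0.41. The counts cover the whole gene, so the short and long forms of NEAT1, which share their start, cannot be told apart.

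DMSO replicate 2 sets the size of several of these differences. Between the 2 DMSO libraries, NEAT1 was 1.87 and MALAT1 1.20 higher in replicate 2 on the log2 scale, while the same gap was 0.0075 for SFPQ, -0.076 for NONO, 0.064 for PSPC1 and 0.29 for RBM14. Without DMSO replicate 2, the log2 difference of belinostat from DMSO became 3.84 for NEAT1 and 3.87 for MALAT1, and that of AsiDNA from DMSO shrank to -0.29 and -0.39. The log2 difference of the combination from DMSO became 1.35 for NEAT1 without that library and -0.49 without DMSO replicate 1, so its direction rests on which DMSO library is used. The 2 combination libraries also differed, with NEAT1 0.73 lower in replicate 2 (-0.73) and MALAT1 0.55 lower (-0.55). The share of counts on genes annotated as sense-intronic was also highest with belinostat, but did not have the order of groups of MALAT1 and NEAT1: it was 0.135% ± 0.010 (SD, n = 2) with belinostat, 0.0850% ± 0.0397 with DMSO, where replicate 2 was the higher, and 0.0533% ± 0.0033 with AsiDNA, and its mean was lowest in the combination. Its part in the result was not tested.

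Divided by annotated exon length, MALAT1 was higher than NEAT1 in all 4 groups. The length used for NEAT1 was 22.767 kb, that of its long form, so counts from the short form make its level per kb too low. The part of the short form is not known here, so which RNA had more molecules cannot be told. Per kb of exon MALAT1 averaged 1006 ± 559 CPM with DMSO, 467 ± 30.4 with AsiDNA, 9071 ± 357 with belinostat and 2112 ± 559 in the combination (SD, n = 2). NEAT1 averaged 361 ± 291, 127 ± 7.0, 2271 ± 206 and 399 ± 139 CPM per kb in the same order. There were 1.53 and 0.958 counts of MALAT1 for each count of NEAT1 with DMSO, 1.43 and 1.41 with AsiDNA, a mean of 1.55 ± 0.08 (SD, n = 2) with belinostat, and 1.96 and 2.22 in the combination. The combination libraries thus had the highest ratio of MALAT1 to NEAT1, and DMSO replicate 2 was the only library with more NEAT1 counts than MALAT1 counts.

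**Figure D1:**
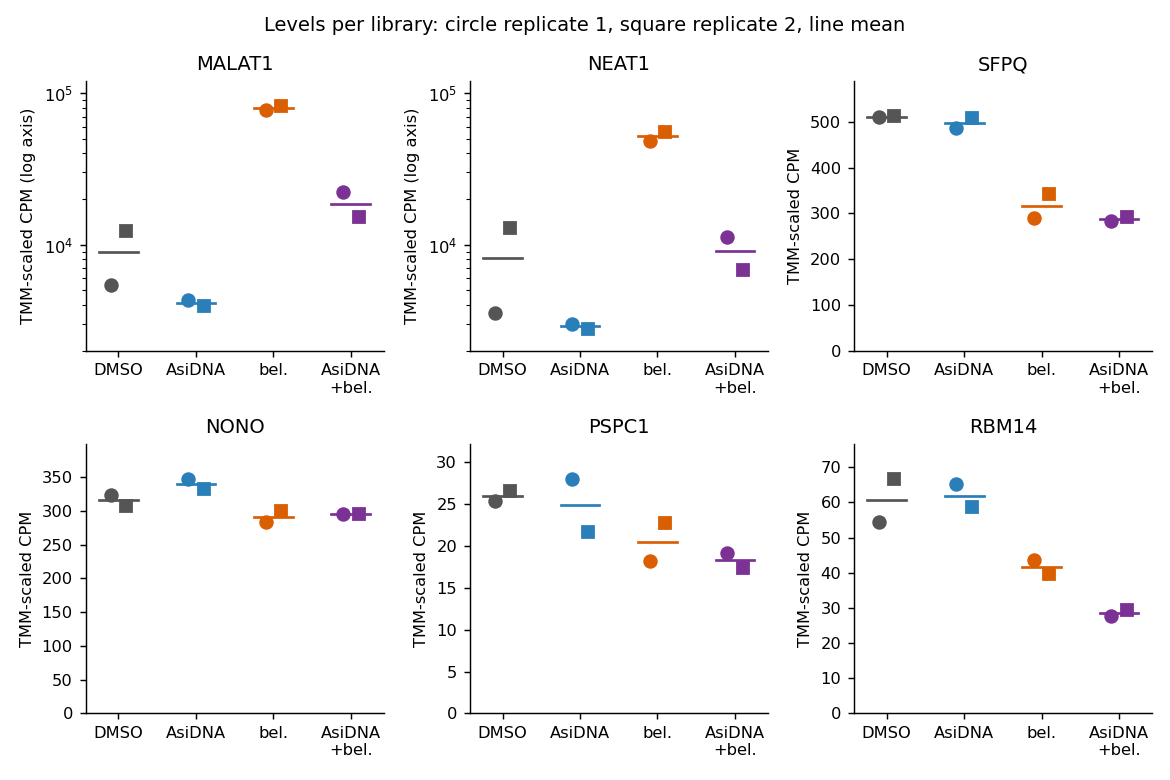
TMM-scaled CPM of the 6 genes in each library, by group (log axis for MALAT1 and NEAT1, linear axis from 0 for the 4 protein genes), with circles for replicate 1, squares for replicate 2 and a line at the mean. The belinostat libraries stand at 77860 and 82323 CPM for MALAT1 and at 48386 and 55034 for NEAT1, while SFPQ, PSPC1 and RBM14 have their lowest means in the combination.

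The messenger RNA of SFPQ, a splicing and transcription factor and the partner of NONO in most dimers, fell with belinostat. SFPQ (ENSG00000116560, chromosome 1, 35176378 to 35193148, minus strand) stood at 509 and 512 CPM with DMSO, 486 and 509 with AsiDNA, 290 and 342 with belinostat, and 284 and 291 in the combination. All 4 libraries given belinostat lay below all 4 that were not. The log2 fold change was -0.69 ± 0.12 (SE) for belinostat against DMSO (edgeR quasi-likelihood test with Benjamini-Hochberg adjustment over all genes, adjusted p = 0.000295). It was -0.79 ± 0.12 for the combination against AsiDNA (edgeR adjusted p = 0.000173) and -0.83 ± 0.12 for the combination against DMSO (edgeR adjusted p = 0.000103). Against belinostat alone, the combination stood at -0.13 ± 0.12 (edgeR adjusted p = 0.390), with groups that overlapped. SFPQ was called lower in the first 3 of these comparisons under every alternative that was run.

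NONO, which binds RNA and DNA and also takes part in repairing double-strand breaks, passed the test in no comparison. NONO (ENSG00000147140, chromosome X, 71283192 to 71301168, plus strand) stood at 324 and 307 CPM with DMSO, 347 and 333 with AsiDNA, 283 and 300 with belinostat, and 295 and 296 in the combination. The AsiDNA libraries were the highest pair and the belinostat and combination libraries overlapped, all within a range of 283 to 347 CPM. For belinostat against DMSO the log2 difference was -0.12, with a 95% interval of -0.36 to 0.13 (edgeR adjusted p = 0.403), and for the combination against AsiDNA it was -0.20, with an interval of -0.45 to 0.04 (edgeR adjusted p = 0.170). These calls depend on how the libraries are scaled: with library size alone, the 2 differences were -0.25 (edgeR adjusted p = 0.0386) and -0.34 (edgeR adjusted p = 0.0126). For the combination against AsiDNA, NONO was also called lower at the same size of difference when either DMSO library was left out (edgeR adjusted p = 0.0200 without replicate 1 and 0.0181 without replicate 2).

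PSPC1, the least abundant member of the family, forms dimers with both of the others. PSPC1 (ENSG00000121390, chromosome 13, 19674752 to 19783019, minus strand) stood at 25.4 and 26.5 CPM with DMSO, 28.0 and 21.7 with AsiDNA, 18.2 and 22.7 with belinostat, and 19.2 and 17.4 in the combination. Both belinostat libraries and both combination libraries lay below both DMSO libraries, while the AsiDNA libraries overlapped DMSO and belinostat. It fell in the combination against DMSO, by 0.51 ± 0.18 (SE) on the log2 scale (edgeR adjusted p = 0.0315), a call that was lost without combination replicate 1 (edgeR adjusted p = 0.0722), without combination replicate 2 (0.151) and with DESeq2 (0.0752). For belinostat against DMSO the difference was -0.35 with a 95% interval of -0.73 to 0.03 (edgeR adjusted p = 0.103), and it passed without DMSO replicate 1 (edgeR adjusted p = 0.0483) or without belinostat replicate 2 (0.0439). For the combination against AsiDNA it was -0.45 with an interval of -0.84 to -0.06 (edgeR adjusted p = 0.0613), and it passed without DMSO replicate 1 (edgeR adjusted p = 0.0115) or 2 (0.0106).

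RBM14, a coactivator with a prion-like domain that is needed for paraspeckles to form, fell with belinostat and was lowest in the combination. RBM14 (ENSG00000239306, chromosome 11, 66616582 to 66627347, plus strand) stood at 54.4 and 66.7 CPM with DMSO, 65.1 and 58.8 with AsiDNA, 43.5 and 39.6 with belinostat, and 27.7 and 29.3 in the combination. The DMSO and AsiDNA libraries overlapped, the belinostat libraries lay below them, and the combination libraries lay below all others. The log2 fold change was -0.54 ± 0.14 (SE) for belinostat against DMSO (edgeR adjusted p = 0.00531) and -1.12 ± 0.15 for the combination against AsiDNA (edgeR adjusted p = 4.67e-05). It was -1.09 ± 0.15 for the combination against DMSO (edgeR adjusted p = 4.97e-05) and -0.55 ± 0.15 for the combination against belinostat (edgeR adjusted p = 0.0108). The last call was lost when any of the 4 libraries compared was left out (edgeR adjusted p = 0.129 and 0.0551 without belinostat replicate 1 and 2, and 0.123 and 0.0858 without combination replicate 1 and 2).

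RBM14 shares exons with an annotated readthrough gene, RBM14-RBM4, and with its neighbour RBM4 through it, so that reads may have been divided between these entries. RBM4, itself a splicing regulator, went the other way: it rose by 1.06 ± 0.22 (SE) in log2 units with belinostat against DMSO (edgeR adjusted p = 0.00105; 0.66 without DMSO replicate 1) and was 1.33 lower in the combination than with belinostat (-1.33 ± 0.23, edgeR adjusted p = 0.000854). The readthrough entry held 15 to 63 counts per library against 166 to 684 for RBM14. Its own log2 difference of belinostat from DMSO was 0.80 ± 0.37 (edgeR adjusted p = 0.0763).

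Of the 4 protein genes, belinostat against DMSO called 2 lower (SFPQ and RBM14) and none higher, where 27.6% of all tested genes were called lower and 29.8% higher. The combination against AsiDNA called the same 2 lower, where 21.2% of all genes were called lower and 21.7% higher. The combination against DMSO called 3 lower (SFPQ, PSPC1 and RBM14), where 23.7% were called lower and 24.3% higher, and the combination against belinostat called 1 lower (RBM14), where 21.4% were called lower and 22% higher. With shares of this size, 1 to 3 of 4 genes called is a small number to read against the background. The median log2 difference of the 4 was -0.45, -0.62, -0.67 and -0.14 in these comparisons, against 0.06, 0.02, -0.01 and -0.01 over all tested genes. AsiDNA against DMSO called none of the 4 with edgeR, none with DESeq2, and none at an unadjusted p under 0.05, where 0.0204% of all genes were called lower and 0% higher. The 4 differences there were -0.04 for SFPQ, 0.11 for NONO, -0.06 for PSPC1 and 0.03 for RBM14.

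Whether belinostat acted differently on these genes when AsiDNA was present was tested as the interaction. It called none of the 4 with edgeR and none with DESeq2, while 1 had an unadjusted p under 0.05, where 0.00678% of all genes were called lower and 0% higher. That gene was RBM14, at -0.58 ± 0.20 (SE, edgeR adjusted p = 0.136), which became -0.72 (edgeR adjusted p = 0.000695) without DMSO replicate 2, where the number of genes called rose from 1 to 5358. For SFPQ, NONO and PSPC1 the interaction was -0.10, -0.09 and -0.10 on the log2 scale. MALAT1 and NEAT1 stood at -0.99 ± 0.42 and -1.005 ± 0.575, given as a description. Without DMSO replicate 2 these became -1.695 and -2.20.

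**Figure D2:**
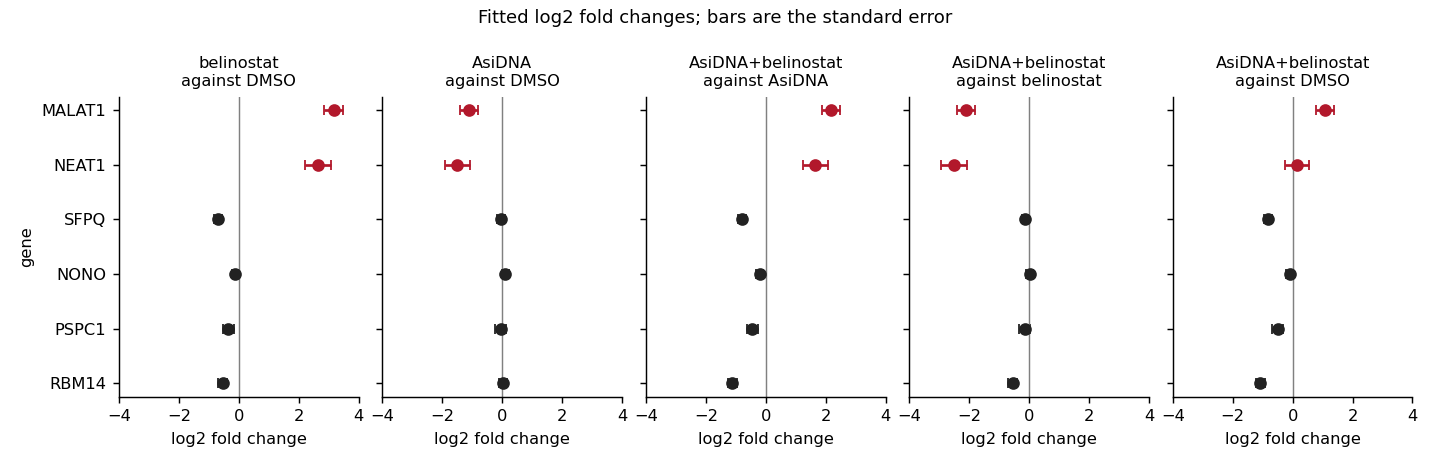
Fitted log2 fold changes (x axis) of the 6 genes (y axis) in the 5 comparisons between groups, with bars for the standard error; red marks MALAT1 and NEAT1, which carry no test. With belinostat against DMSO, MALAT1 and NEAT1 stand at 3.17 and 2.65 and the 4 protein genes between -0.69 and -0.12.

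The protein messenger RNAs did not have the order of groups seen for NEAT1. NEAT1 and MALAT1 were both ordered belinostat, combination, DMSO and AsiDNA from highest to lowest. SFPQ and PSPC1 were ordered DMSO, AsiDNA, belinostat and combination, NONO was ordered AsiDNA, DMSO, combination and belinostat, and RBM14 AsiDNA, DMSO, belinostat and combination. Neighbours in these orders often did not differ beyond their spread: DMSO and AsiDNA differed by no called gene of the 4, and belinostat and the combination by RBM14 alone. The highest group for NEAT1 was thus among the lower 2 groups for each of the 4 proteins.

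The spread within groups gave a second view of the same question, without the treatment contrast. In the 2 DMSO libraries, where NEAT1 was 3536 and 12920 CPM, SFPQ was 509 and 512, and NONO 324 and 307. In the combination, where NEAT1 was 11313 and 6837 CPM, SFPQ was 284 and 291, and NONO 295 and 296. For SFPQ, the gaps of replicate 2 from replicate 1 on the log2 scale were 0.0075 with DMSO, 0.069 with AsiDNA, 0.23 with belinostat and 0.037 in the combination, beside 1.87, -0.11, 0.19 and -0.73 for NEAT1. NONO had -0.076, -0.061, 0.084 and 0.0044, and RBM14 0.29, -0.15, -0.13 and 0.081 in the same order. The sign of the gap was thus that of NEAT1 in 2 of 4 groups for each of SFPQ, NONO and RBM14. PSPC1, at 0.064, -0.37, 0.32 and -0.14, had the sign of NEAT1 in 4 of 4 groups, though the sizes of its gaps did not follow those of NEAT1: its smallest gap was in DMSO, where that of NEAT1 was the largest. These gaps rest on 2 libraries a group and carry no test.

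Counted against its proteins, NEAT1 rose far above them. For each count on the 4 protein genes together there were 3.87 and 14.2 counts of NEAT1 with DMSO, 3.25 and 3.02 with AsiDNA, 76.2 and 78.2 with belinostat, and 18.1 and 10.8 in the combination. Per kb of exon, with the length of the long form for NEAT1, it stood at 2.26 and 8.23 times SFPQ with DMSO and 2.02 and 1.78 times with AsiDNA. It stood at 54.3 and 52.5 times SFPQ with belinostat, and 13.0 and 7.65 times in the combination. The 4 protein genes together held 0.0974% ± 0.0059 (SD, n = 2) of all counts with DMSO, 0.0948% ± 0.0005 with AsiDNA, 0.0649% ± 0.0052 with belinostat and 0.0589% ± 0.0007 in the combination. In such shares, more counts on MALAT1 and NEAT1 leave a smaller share for every other gene. The pair held 0.911% and 2.81% of all counts with DMSO, and 12.2% and 13.4% with belinostat. The shift in the ratio with belinostat comes from both of its terms, and mostly from NEAT1, a gene chosen by that change.

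Over the 8 libraries, the Pearson correlation of log2 CPM with NEAT1 was 0.979 for MALAT1, -0.615 for SFPQ, -0.805 for NONO, -0.369 for PSPC1 and -0.366 for RBM14. Among the 4 proteins it ranged from 0.695 (NONO with RBM14) to 0.907 (SFPQ with RBM14). These are descriptions over 8 libraries that fall into 4 groups of 2 and share their treatment and scaling, so they carry no p. The plot of NEAT1 against each protein shows the groups rather than a line: DMSO and AsiDNA libraries form 1 level of SFPQ and belinostat and combination libraries a lower one, at any NEAT1 level.

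**Figure D3:**
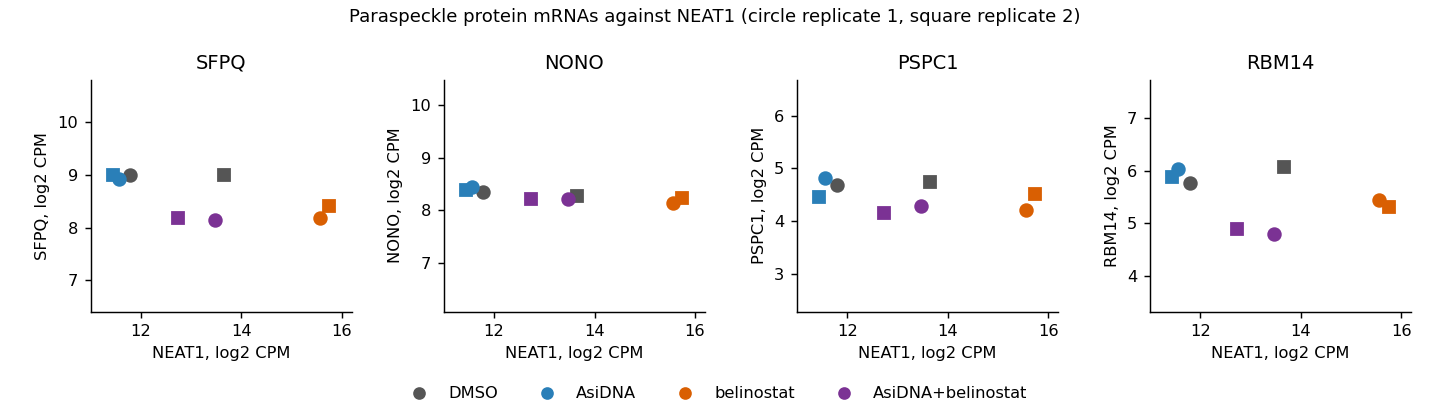
Log2 CPM of SFPQ, NONO, PSPC1 and RBM14 (y axes, all of the same span) against log2 CPM of NEAT1 (x axis) in the 8 libraries, coloured by group, with circles for replicate 1 and squares for replicate 2. The 2 DMSO libraries lie 1.87 apart on the NEAT1 axis at nearly the same SFPQ level, and the combination libraries have low SFPQ and RBM14 at NEAT1 levels between those of the DMSO libraries.

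A wider list held 31 further genes whose proteins have been reported in paraspeckles, of which 30 were tested; it was drawn up with earlier results of these data known. Belinostat against DMSO called 11 lower and 3 higher, which is 36.7% and 10% of the 30, beside 27.6% and 29.8% of all tested genes. The combination against AsiDNA called 15 lower and 2 higher (50% and 6.67%, beside 21.2% and 21.7% of all genes). The combination against DMSO called 18 lower and 1 higher (60% and 3.33%, beside 23.7% and 24.3%), and the combination against belinostat 12 lower and 7 higher (40% and 23.3%, beside 21.4% and 22%). These counts depend on single libraries. The total of 14 for belinostat against DMSO rose without DMSO replicate 2 and fell without belinostat replicate 1. The total of 17 for the combination against AsiDNA fell without AsiDNA replicate 1. In each case the count over all tested genes moved the same way. AsiDNA against DMSO called none of the 30 with edgeR and none with DESeq2, with 7 at an unadjusted p under 0.05, and 12 were called when DMSO replicate 1 was left out, which took the count over all genes from 3 to 4955.

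Among proteins needed to build or keep the body, HNRNPK, HNRNPH3 and SMARCA4 fell at the RNA level with belinostat against DMSO, and DAZAP1 stood at -0.11 (edgeR adjusted p = 0.510). HNRNPK, which holds back the early poly(A) site of NEAT1 and so favours the long form, stood at 595 and 482 CPM with DMSO, 596 and 584 with AsiDNA, 367 and 383 with belinostat, and 510 and 553 in the combination. HNRNPK fell by 0.52 ± 0.13 with belinostat against DMSO (edgeR adjusted p = 0.00382), but the combination against AsiDNA stood at -0.15 ± 0.13 (edgeR adjusted p = 0.383). HNRNPH3 and SMARCA4, a subunit of the SWI/SNF chromatin complex, fell by 0.65 ± 0.16 and 0.54 ± 0.12 with belinostat (edgeR adjusted p = 0.00327 and 0.00187).

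CPSF6 and NUDT21, which form the factor that promotes the early poly(A) site of NEAT1, did not move alike. NUDT21 fell by 0.72 ± 0.14 (SE) in log2 units with belinostat against DMSO (edgeR adjusted p = 0.000647), where CPSF6 stood at -0.07 ± 0.11 (edgeR adjusted p = 0.640). In the combination against AsiDNA, CPSF6 fell by 0.47 ± 0.12 (edgeR adjusted p = 0.00493; 0.0558 without AsiDNA replicate 1 and 0.0573 without combination replicate 2) and NUDT21 stood at -0.30 ± 0.14 (edgeR adjusted p = 0.0935). TARDBP, the gene of TDP-43, stood at -0.17 with belinostat against DMSO (edgeR adjusted p = 0.235). The members of the wider list with the smallest adjusted p with belinostat against DMSO were RBM3, a cold-inducible RNA-binding protein, at -1.68 ± 0.12, RBMX at -1.42 ± 0.13, HNRNPUL1 at -1.22 ± 0.13 and AHDC1 at 1.21 ± 0.14 (edgeR adjusted p between 1.8e-07 and 6.57e-06). Among the 30, only AHDC1, AKAP8L (0.69 ± 0.15) and TAF15 (0.51 ± 0.19) rose with belinostat against DMSO. The TAF15 call was lost under 13 of 16 alternatives, and the AKAP8L call was lost without belinostat replicate 1 (edgeR adjusted p = 0.0542).

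**Figure D4:**
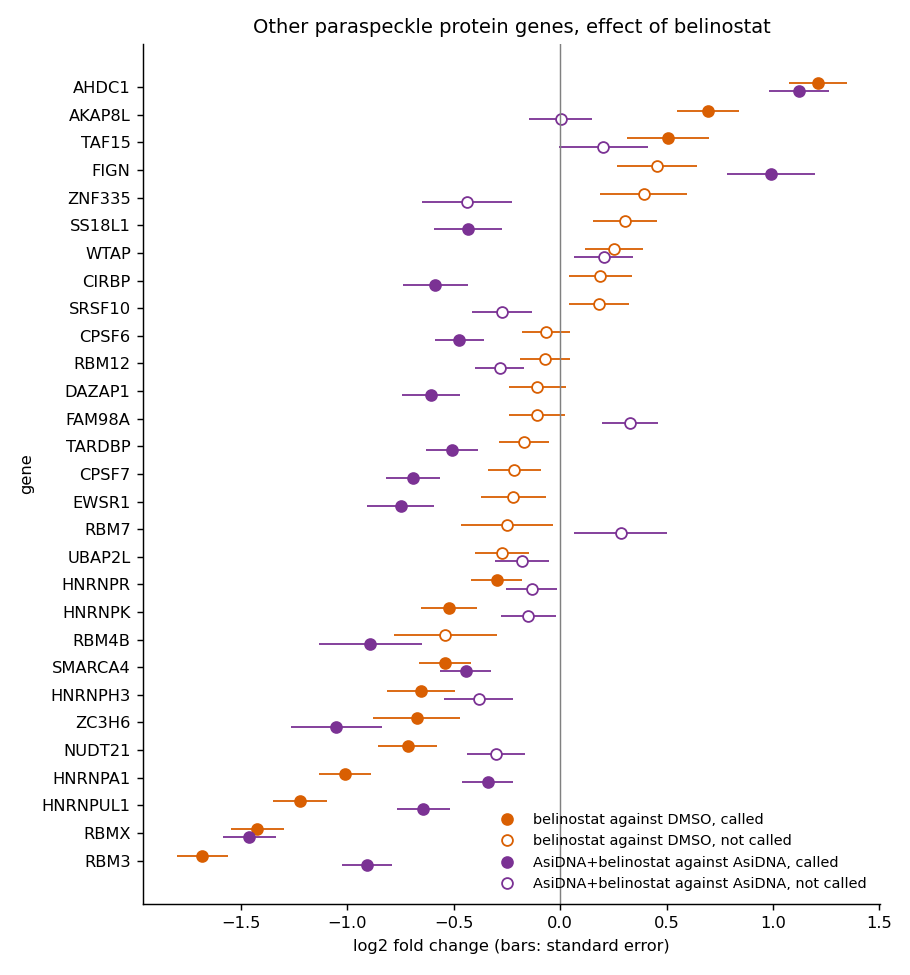
Log2 fold changes (x axis, bars for the standard error) of 29 of the 30 tested genes of the wider paraspeckle list (y axis), for belinostat against DMSO (orange) and the combination against AsiDNA (purple); filled points have an adjusted p under 0.05. RBM3 lies lowest with belinostat against DMSO at -1.68, and AHDC1 highest at 1.21.

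The 13 genes for cutting the ends of the 2 RNAs and for binding the MALAT1 triple helix gave 7 lower and 1 higher with belinostat against DMSO (53.8% and 7.69%, beside 27.6% and 29.8% of all tested genes). The total of 8 was lower without belinostat replicate 2, as was the count over all tested genes. METTL16, which binds that helix, fell by 0.60 ± 0.14 (SE) on the log2 scale (edgeR adjusted p = 0.00213). POP1, the largest protein of RNase P, fell by 0.67 ± 0.15 (edgeR adjusted p = 0.00156). Of the 13, the combination against AsiDNA called 4 lower and none higher (30.8% and 0%, beside 21.2% and 21.7% of all genes). Against DMSO, the combination had 1 lower and 2 higher (7.69% and 15.4%, beside 23.7% and 24.3%). Against belinostat, it had none lower and 3 higher (0% and 23.1%, beside 21.4% and 22%). Among 18 nuclear speckle proteins, the bodies where MALAT1 collects, belinostat against DMSO called 6 lower and 6 higher (33.3% each), near the 27.6% and 29.8% of all genes. In the combination against belinostat, 11 of the 18 were called lower and none higher (61.1% and 0%, beside 21.4% and 22% of all genes). LUC7L3, the gene of a splicing factor, stood there at -1.57 ± 0.19 (edgeR adjusted p = 0.000271), and MALAT1 at -2.10. Most of the 18 were also called lower where MALAT1 was higher. Against AsiDNA, the combination had 12 lower and 1 higher (66.7% and 5.56%, beside 21.2% and 21.7%), with MALAT1 at 2.18. Against DMSO, it had 13 lower and 1 higher (72.2% and 5.56%, beside 23.7% and 24.3%), with MALAT1 at 1.07.

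MALAT1 and NEAT1 were set beside 18 other tested long noncoding RNAs, of which belinostat against DMSO called 5 higher and 6 lower (27.8% and 33.3%, near the 29.8% and 27.6% of all tested genes). This total of 11 was higher without DMSO replicate 2, as was the count over all tested genes. MIAT, a nuclear RNA like MALAT1, rose by 3.63 ± 0.34 (SE) on the log2 scale (edgeR adjusted p = 1.63e-06), and KCNQ1OT1, the antisense RNA of an imprinted locus, rose by 2.55 ± 0.32 (edgeR adjusted p = 1.72e-05). DANCR, a host of small nucleolar RNAs, fell by 1.91 ± 0.18 (edgeR adjusted p = 1.33e-06). Of the 18, the combination against belinostat called 13 lower and 3 higher (72.2% and 16.7%, beside 21.4% and 22% of all genes). MALAT1 and NEAT1 stood there at -2.10 and -2.51. Against AsiDNA, the combination had 6 lower and 4 higher (33.3% and 22.2%, beside 21.2% and 21.7%). Against DMSO, it had 8 lower and 2 higher (44.4% and 11.1%, beside 23.7% and 24.3%). Among genes known to control NEAT1 transcription, belinostat against DMSO called the hypoxia factors HIF1A (1.02 ± 0.13) and EPAS1 (1.13 ± 0.16) higher, BRCA1 (-1.56 ± 0.12) lower, and HSF1 and ATF2 in neither direction. In the combination against AsiDNA HIF1A, EPAS1 and BRCA1 were called in the same directions, at 1.23, 1.52 and -1.20.

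NEAT1 and MALAT1 lie 52147 bases apart on chromosome 11, and the genes around them were read for the same comparisons. Within 200 kb of the pair the table held 36 further genes, of which 18 passed the filter on low counts; the rest had too few counts to test. Belinostat against DMSO called 12 of the 18 higher (66.7%, beside 29.8% of all tested genes) and none lower, with a median log2 difference of 0.77. The combination against AsiDNA called 10 higher (55.6%, beside 21.7% of all tested genes) and none lower (beside 21.2%), with a median of 0.60. Among them was FAUP4, a transcribed pseudogene between NEAT1 and MALAT1, at 13.1 and 15.3 CPM with DMSO, 11.5 and 13.2 with AsiDNA, 78.8 and 65.7 with belinostat, and 56.2 and 53.7 in the combination. FAUP4 rose by 2.35 ± 0.16 (SE) in log2 units with belinostat against DMSO (edgeR adjusted p = 9.99e-08). The combination against DMSO gave 1.95 ± 0.16 for FAUP4 (edgeR adjusted p = 7.09e-07), where NEAT1 stood at 0.14.

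With belinostat against DMSO, the nearest protein-coding genes had smaller differences than the pair. FRMD8, which ends before NEAT1 begins, rose by 1.14 ± 0.14 (SE) in log2 units with belinostat against DMSO (edgeR adjusted p = 1.09e-05). LTBP3, on the other side of MALAT1, stood at 0.27 ± 0.16 (edgeR adjusted p = 0.156). In the combination against belinostat, MALAT1 and NEAT1 stood at -2.10 and -2.51. There 5 of the 18 genes were called lower (27.8%, beside 21.4% of all tested genes) and 1 higher (5.56%, beside 22%). The median log2 difference was -0.36. The total of 6 was lower when any library of the 2 groups was left out, as was the count over all tested genes. The gene called higher was FAM89B, at 0.94 ± 0.15 (edgeR adjusted p = 0.000553). Strand use in the counting is not given in the sources used here, so reads from MALAT1 and from RNAs antisense to it cannot be told apart, and the antisense RNA TALAM1 was not matched to an identifier and has no value here.

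**Figure D5:**
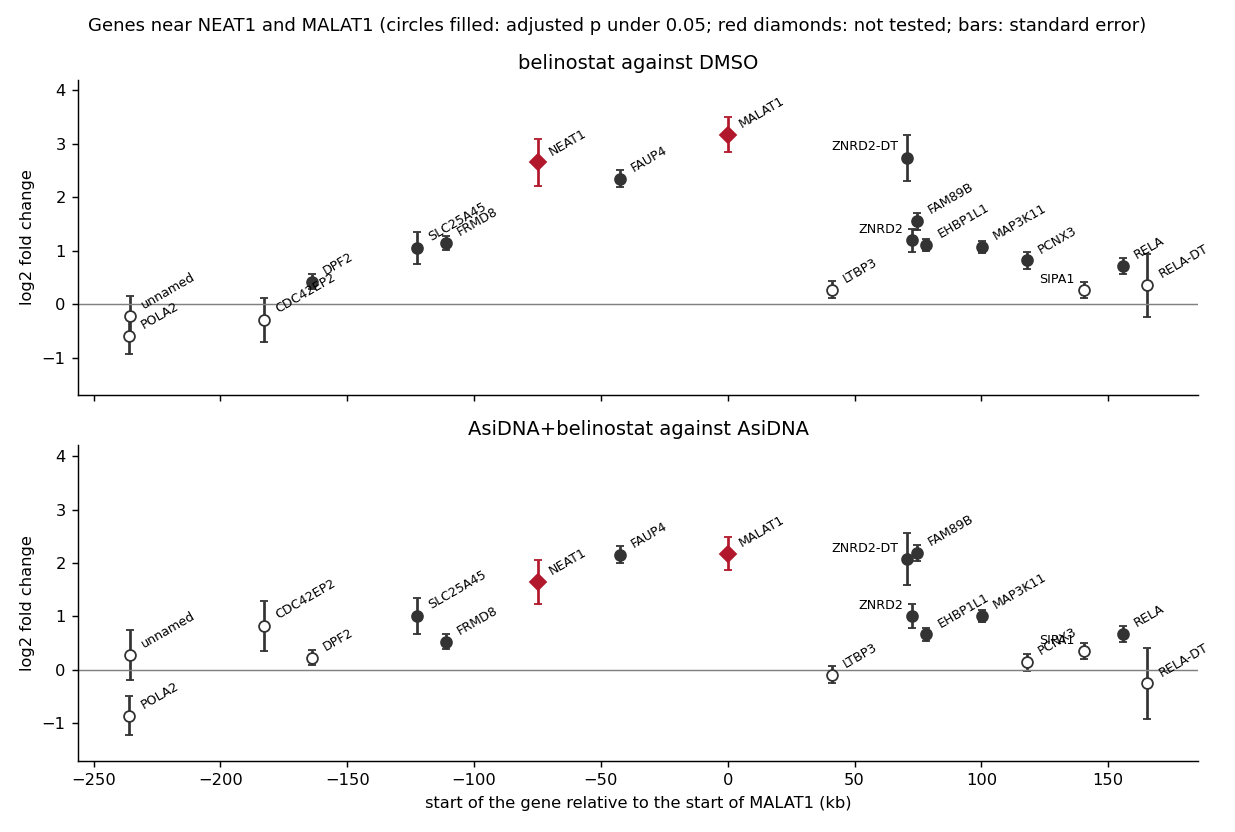
Log2 fold change (y axis, bars for the standard error) of NEAT1, MALAT1 and 17 of the 18 tested genes within 200 kb of them against the distance of their start from the start of MALAT1 in kb (x axis), for belinostat against DMSO (top) and the combination against AsiDNA (bottom). Red diamonds mark NEAT1 and MALAT1, not tested; filled circles have an adjusted p under 0.05, 11 in the top panel and 9 in the bottom panel, and all of these lie above 0.

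The genes most like each of the 6 were found as the highest Pearson correlations of log2 CPM over the 8 libraries among 10920 named genes with a mean of at least 2 on the log2 CPM scale. For NEAT1 these were GRIPAP1, SGSM2, MBTD1, KCNQ1OT1 and AOPEP, with r from 0.996 to 0.999. For MALAT1 they were MLXIP, MBD5, NR6A1, CBLB and INVS, with r from 0.997 to 0.999. These correlations do not measure the size of a change. From the lowest to the highest library, the 5 genes for NEAT1 spanned 0.82 (GRIPAP1) to 3.62 (KCNQ1OT1) log2 units. Those for MALAT1 spanned 0.78 (INVS) to 2.64 (NR6A1). NEAT1 itself ran from 11.4 to 15.7 log2 CPM and MALAT1 from 11.9 to 16.3. SFPQ was most like HJURP (0.997) and CEPT1, NONO most like CENPS (0.984) and LPCAT1, PSPC1 most like CNGA3 (0.980) and AFG1L, and RBM14 most like ZC3H18 (0.997) and PDE7B. No gene stood in the first 5 of more than 1 of the 6. KCNQ1OT1 shared the gap between the DMSO libraries with NEAT1, at 80.3 and 207 CPM with DMSO, 74.6 and 71.0 with AsiDNA, 818 and 873 with belinostat, and 245 and 158 in the combination.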

How the data were processed

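RNA was measured in 8 libraries of U87 cells, 4 groups of 2. The deposited values are raw counts per Ensembl gene; per the labels' protocols, total RNA was depleted of ribosomal RNA and made into stranded libraries, and per the submitters' processing notes the tools were cutadapt 1.16, STAR 2.7.0 and featureCounts 1.6.3 with GRCh38. How the counting used strand, and its annotation release, were not given in the sources used here. Gene positions, exon lengths and sequences were taken from GENCODE v29 (GRCh38), which holds 58611 of the 58884 identifiers.

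The counts were fitted with edgeR 4.0.16 (R 4.3.3) over all 8 libraries with 1 term per group: filterByExpr left 14741 genes, TMM scaling, glmQLFit and glmQLFTest, 5 comparisons between groups and their interaction. P-values were Benjamini-Hochberg adjusted over all tested genes and called under 0.05. The standard error is the log2 fold change divided by the root of its F value. The script was tested on simulated data. Replicate numbers came from the titles; the numbers did not pair the libraries. Alternatives were RLE factors, library size alone, scaling without MALAT1 and NEAT1, DESeq2 1.42.0, other filters, only the groups compared, a replicate block and leaving out each library.

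The 6 genes and all lists were chosen with earlier results of these data known. Named genes were the 6, those of each list with the smallest adjusted p (up to 6 for belinostat against DMSO and up to 3 for each other comparison), fixed names (HNRNPK, CPSF6, NUDT21, TARDBP, SMARCA4, TALAM1), the genes within 200 kb, and the 5 most correlated with each; TAF15 and AKAP8L, and RBM4 with its readthrough, were chosen after their values were seen. Some genes of the lists are counted in them but are not reported here by name or plotted.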

Additional observations from a re-analysis of the deposited data

How the results depend on the processing

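No difference of a named gene that passed the test changed direction under any alternative. Of the 4 protein genes, 4 were called lower with library size alone, both for belinostat against DMSO and for the combination against AsiDNA, and 4 for the combination against AsiDNA when only the groups compared were fitted. Over all genes, the combination against AsiDNA called 3120 lower and 3199 higher of 14741 in the main fit. With library size alone these were 3961 and 2568. When only the groups compared were fitted, they were 4095 and 4172 of 13093 genes. In the wider paraspeckle list, the count for AsiDNA against DMSO was 4 without a filter on low counts, and the interaction count was 2 with library size alone, 4 with DESeq2, 5 without a filter and 2 with a minimum of 1 CPM in 2 libraries. Library size alone shifted all genes by a median of -0.14 on the log2 scale in belinostat against DMSO, where 4799 genes were called lower and 3589 higher, against 4071 and 4395; without a filter the shift was -0.16, with 4856 lower and 3793 higher. Over all genes, 3 were called for AsiDNA against DMSO, but 33 with DESeq2 and 520 without a filter; 1 was called for the interaction, but 10 with RLE factors, 157 with library size alone, 614 with DESeq2, 351 with the 1 CPM minimum, 19 with the replicate block and 1549 without a filter. The cause was not tested.

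Leaving out each library in turn gave 2 to 3 of the 4 protein genes for belinostat against DMSO, 0 to 0 for AsiDNA against DMSO, 2 to 4 for the combination against AsiDNA, 0 to 1 for the combination against belinostat, 2 to 3 for the combination against DMSO and 0 to 1 for the interaction. For the wider list the ranges were 9 to 21, 0 to 12, 10 to 23, 12 to 20, 17 to 22 and 0 to 18 in the same order, with 18 for the interaction without DMSO replicate 2. The genes within 200 kb of the pair gave 9 to 13 calls for belinostat against DMSO and 7 to 13 for the combination against AsiDNA; these and the other lists were run after the data were seen.

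With the replicate block, 2, 0, 2, 1, 3 and 0 of the 4 protein genes were called in that order, as without it; same-numbered libraries did not deviate together (correlations of -0.196 to 0.139 over 6 pairs of groups). With 2 libraries a group, the difference of PSPC1 between belinostat and DMSO (-0.35, standard error 0.18) did not pass the test in the main fit. It was called lower with library size alone, so this result depends on the setting.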
